A study of Homo sapiens with 60 samples.

Results

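The high dose of Guibi-tang, 500 µg/mL, was compared with the same dose of Saengmaek-san in SW1783 cells, an established human astrocytoma line and the only line studied, after 24 h. Both are traditional Korean multi-herb formulas, given here as dried 70% ethanol extracts. The libraries were chosen by their labels, and 3 Guibi-tang and 3 Saengmaek-san libraries were compared, which is 6 of 60 in the series. Both extracts were also given at 20 and 100 µg/mL with 3 libraries each, so that the pair holds 18 libraries, and all of them carry the library-name set 13. Vehicle, which the sample records give as 0.1% DMSO and the series text as 2% DMSO, had 3 libraries of another set (D1), so library set and treatment cannot be told apart in values against vehicle, and both extracts share those 3 libraries. Messenger RNA was sequenced from directional libraries. The labels do not say whether replicates were separate cultures. A p-value therefore rests on the spread between replicate libraries, estimated over all 60 libraries of the series, and that spread may be technical.

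By their textbook recipes, Guibi-tang combines ginseng, astragalus, Atractylodes, Poria, jujube seed, longan, Angelica, Polygala, licorice, Aucklandia and others, while Saengmaek-san combines ginseng, the tuber of Ophiopogon or Liriope, and Schisandra fruit. Ginseng is therefore common to both and the other named herbs are not. A crude extract can carry saponins, lignans, lactones, sugars and fatty acids together, and cells answer such mixtures with shared stress programs. The antioxidant program runs through the factor NRF2, the integrated stress response through ATF4, and sugar sensing through the MondoA and ChREBP factors, whose best known target is TXNIP. Astrocytoma cells of a mesenchymal kind also make much collagen, tenascin and vimentin, and divide steadily in culture.

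Several astrocyte markers were nearly absent from the line in all 6 libraries, but not all. SLC1A3, an astrocyte marker of the same list, stood at 7.15 to 7.85 CPM in Guibi-tang and 16.9 to 21.9 CPM in Saengmaek-san. It was lower in Guibi-tang (log2 fold change -1.29, edgeR adjusted p = 1.7e-08). GFAP, S100B, ALDH1L1 and SOX2 had at most 4 expected counts in any library, and AQP4 and FABP7 were at 0, while VIM, CD44, SOX9, EGFR, PDGFRA and CHI3L1 were expressed. Of 16 astrocyte and glioma markers, 8 reached 1 CPM (read counts relative to the library's total, scaled by TMM) in all 6 libraries, and the summed level of the list was 2118 to 2372 CPM in Guibi-tang and 8561 to 8836 CPM in Saengmaek-san. Summed neuronal markers lay at 54.6 to 59.6 CPM in Guibi-tang and 128 to 133 CPM in Saengmaek-san, and leukocyte markers at 104 to 133 CPM in Guibi-tang and 157 to 176 CPM in Saengmaek-san. Endothelial markers summed to 25.6 to 30.1 CPM in Guibi-tang and 35.7 to 48.7 CPM in Saengmaek-san, and epithelial markers to 31.4 to 32.2 CPM in Guibi-tang and 103 to 126 CPM in Saengmaek-san. CD3E and CDH5 were at 0 in all 6. Each of these summed levels was lower in Guibi-tang without overlap, but VIM and CD44 make up most of the astrocyte and glioma sum, CD68 of the leukocyte sum and KDR of the endothelial sum. Within the lists SOX9 (78.6 CPM in Guibi-tang and 47.5 CPM in Saengmaek-san, log2 fold change 0.73, edgeR adjusted p = 1.9e-05) and CLDN4 (0.58, edgeR adjusted p = 0.002) were higher in Guibi-tang, and EGFR, PDGFRA and SYT1 were not called. The part of these markers in the results was not tested.

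The 6 libraries held 21378428 to 32293706 expected counts, inside the range of all 60 (19031094 to 37686975). The Guibi-tang libraries stood apart from the Saengmaek-san libraries in composition, with TMM scaling factors of 1.28, 1.33 and 1.28 in Guibi-tang against 1.01, 0.998 and 1.02 in Saengmaek-san. The slope of each library's log2 deviation from vehicle on log2 transcript length was 0.117, 0.111 and 0.108 in Guibi-tang and -0.107, -0.0175 and -0.0695 in Saengmaek-san, the lowest being Saengmaek-san replicate 1, which carries more counts on short transcripts. Mitochondrially encoded genes took 9.15%, 7.82% and 9.39% of the counts in Guibi-tang and 6.40%, 5.73% and 5.42% in Saengmaek-san, against 10.1% to 10.3% in vehicle. Neither measure overlapped between the groups, and their part in the differences below was not tested beyond the fits with the length slope as a covariate.

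At the high dose the 2 extracts gave widely different expression profiles. HMOX1, GDF15, SLC7A11 and the ferritins, which serve stress and iron defence, were higher with Guibi-tang, while interferon-stimulated genes and growth-signal feedback genes went both ways. Genes of the extracellular matrix, the cytoskeleton, mitosis, protein folding, protein degradation, tRNA charging, glycolysis and sterol synthesis were mostly lower with Guibi-tang than with Saengmaek-san. TXNIP was far above vehicle with Saengmaek-san and slightly below it with Guibi-tang. Of 19366 genes tested, 9997 (51.6%) passed edgeR's quasi-likelihood test at a Benjamini-Hochberg adjusted p under 0.05, with 4784 (24.7%) higher and 5213 (26.9%) lower in Guibi-tang. Among them 1657 were higher by more than 1 on the log2 scale and 2168 lower by more than 1. All counts of list members below are to be read beside these shares of all genes.

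Without Saengmaek-san replicate 1, 8797 genes passed, 4038 higher and 4759 lower, and 8632 of them passed in the same direction with all 6 libraries. Against the shared vehicle libraries, 9726 genes (50.2%) passed for Guibi-tang, 4577 (23.6%) higher and 5149 (26.6%) lower. For Saengmaek-san 3371 genes (17.4%) passed, 1717 (8.87%) higher and 1654 (8.54%) lower. The CPM of the groups did not overlap for 12673 genes (65.4%), 6303 of them higher (32.5%) and 6370 lower (32.9%) in Guibi-tang. Scaled by library totals alone, in place of TMM, the median log2 fold change of all genes was 0.37, against 0.01 with TMM, and the split turned to 7943 higher and 3129 lower. All log2 fold changes below are on the TMM scale, and list medians that library totals turn round are given where they occur.

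The difference followed the level of a gene in vehicle cells. Of 77 genes with a vehicle mean above 10 log2 CPM, 3.90% were higher and 72.7% lower in Guibi-tang, with a median log2 fold change of -1.53. Among 551 genes between 8 and 10 log2 CPM, 3.09% were higher and 77.3% lower, with a median of -0.96, while 7716 genes under 2 log2 CPM had a median of 0.22 with 20.4% higher and 10.7% lower. The 100 most abundant genes of vehicle cells took 17.0%, 15.8% and 17.5% of the counts in the Guibi-tang libraries, 21.97%, 21.3% and 20.99% in the Saengmaek-san libraries and 25.9% to 26.1% in vehicle. Antisense genes (median 0.33) and lincRNAs (0.24) lay above protein-coding genes (-0.09), also among genes of 2 to 4 log2 CPM (0.42 for both RNA classes together, 0.11 for protein-coding genes). The 3032 genes of 6 to 8 log2 CPM had a median of -0.31, with 50.1% lower. Bulk RNA cannot tell fewer cells of a kind from less RNA per cell. Many of the listed pathways below consist of abundant genes, so their medians are to be read against these class medians. Whether a list fell more than other genes of its level was not tested.

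**Figure D1:**
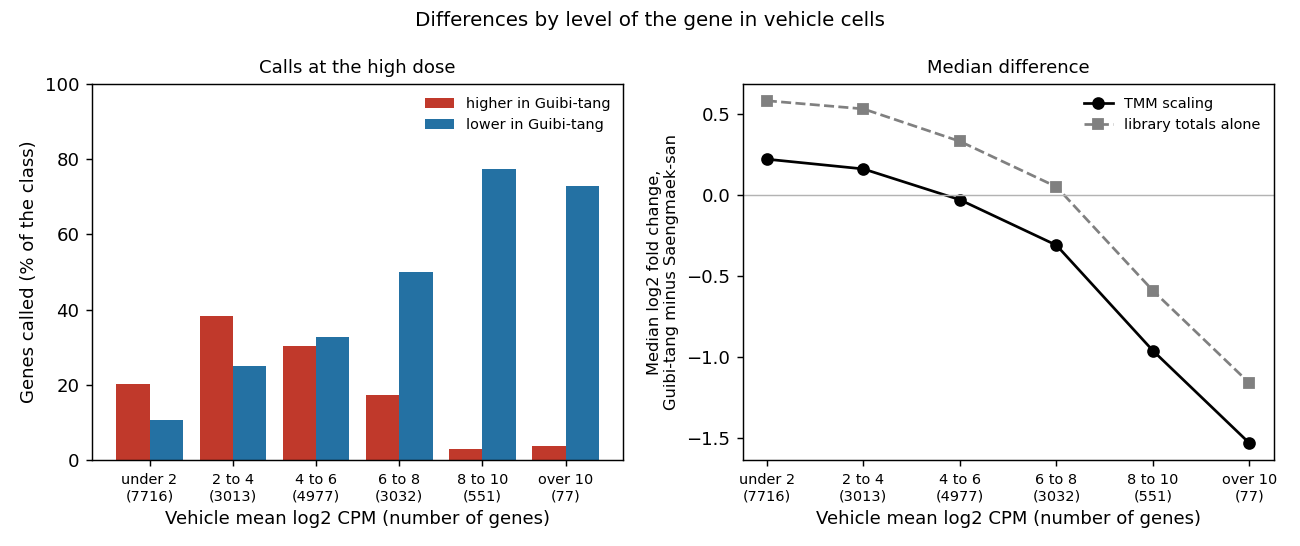
Genes grouped by their mean level in vehicle (x axis, log2 CPM, number of genes in brackets). The left panel gives the percentage of each class called higher (red) or lower (blue) in Guibi-tang high against Saengmaek-san high, and the right panel the median log2 fold change under TMM scaling (black) and library totals alone (grey). The share called lower reached 77.3% in the class of 8 to 10 log2 CPM.

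IFIT2, an interferon-induced RNA-binding protein, led the rises with 51.2, 51.5 and 53.4 CPM in Guibi-tang against 5.89, 6.48 and 6.87 CPM in Saengmaek-san (log2 fold change 3.02, SE 0.21, adjusted p = 3.2e-15). GDF15 (ENSG00000130513, chr19:18374731-18389176, GRCh38, plus strand), a secreted stress cytokine that curbs appetite through a brainstem receptor, had 39.2, 37.6 and 39.0 CPM in Guibi-tang against 4.87, 4.75 and 4.84 CPM in Saengmaek-san (log2 fold change 3.00, SE 0.18, adjusted p = 1.5e-17). Both genes were tightly grouped within each extract, and the groups lay far apart. HMOX1 (ENSG00000100292, chr22:35380361-35394214, plus strand), the enzyme that degrades heme, had 620.3, 634.9 and 656 CPM in Guibi-tang against 87.5, 74.8 and 80.9 CPM in Saengmaek-san (log2 fold change 2.97, SE 0.10, adjusted p = 9.2e-25). RND3, a small GTP-binding protein that counteracts RhoA and actin contraction, had 647.1, 626.4 and 546.6 CPM in Guibi-tang against 75.1, 75.4 and 81.1 CPM in Saengmaek-san (log2 fold change 2.97). Separation from every Saengmaek-san library was a condition for naming these genes by size. Each Guibi-tang library also lay above the vehicle means of 7.18, 3.74, 59.3 and 59.5 CPM for IFIT2, GDF15, HMOX1 and RND3.

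PPARGC1B, a coactivator of mitochondrial and lipid genes, was higher in Guibi-tang than in Saengmaek-san (log2 fold change 2.99, SE 0.22). It had 13.3, 12.3 and 11.0 CPM in Guibi-tang and 1.22, 1.98 and 1.40 CPM in Saengmaek-san. The vehicle mean, from another library set, was 2.64 CPM. The low doses of both extracts also lay below vehicle, at 1.74 CPM for Guibi-tang and 1.46 CPM for Saengmaek-san. High-dose Saengmaek-san differed from its own low dose by 0.07 on the log2 scale (edgeR adjusted p = 0.94). SIK1, a kinase of the AMPK family induced by cAMP signals, had 123.4, 124.7 and 126.4 CPM in Guibi-tang against 21.1, 21.4 and 21.0 CPM in Saengmaek-san (log2 fold change 2.56). The other genes among the 12 largest rises were TM4SF19, ITPRIP, the transcription factor KLF11, the synaptotagmin SYT14, RPP25 (a protein of ribonuclease P and MRP) and the potassium channel KCNC4, with log2 fold changes of 2.39 to 2.75. All 12 stayed under an adjusted p of 0.05 in every refit without 1 of the 6 libraries. The refit without Saengmaek-san high replicate 1 was a condition of their choice, and so was separation of the groups. These refits are therefore no independent support.

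**Figure D2:**
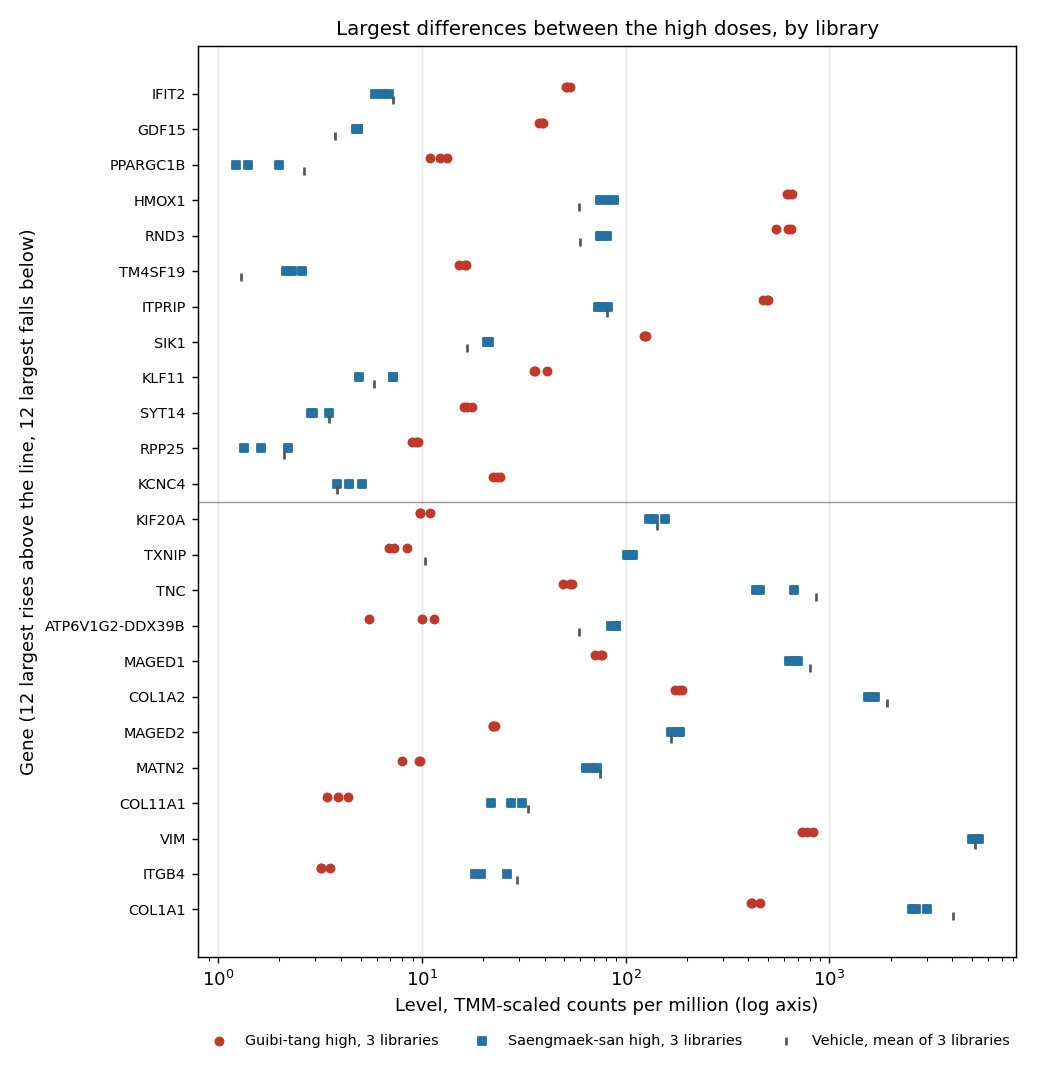
Level of the 12 genes with the largest rises (above the line) and the 12 with the largest falls (below) in single libraries, as TMM-scaled CPM on a log axis. Red circles are Guibi-tang high, blue squares Saengmaek-san high, and grey ticks the vehicle mean. The 24 genes were chosen among genes whose groups do not overlap, which was the case for 65.4% of all genes tested. TXNIP is the fall whose Saengmaek-san libraries (102.1 to 108.8 CPM) lie far above the vehicle mean of 10.3 CPM.

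TXNIP (ENSG00000265972), which binds thioredoxin and restrains glucose uptake, differed mostly through Saengmaek-san. It had 6.89, 7.31 and 8.45 CPM in Guibi-tang against 102.1, 104.2 and 108.8 CPM in Saengmaek-san (log2 fold change -3.80, SE 0.13, adjusted p = 4.5e-25), with a vehicle mean of 10.3 ± 0.613 CPM (SD, n = 3). Against vehicle the log2 fold change was -0.45 (adjusted p = 0.002) for Guibi-tang and 3.35 (adjusted p = 2.3e-22) for Saengmaek-san. Of 7 tested genes of the list of TXNIP and the alpha-arrestins, TXNIP fell, ARRDC2 rose (log2 fold change 1.3) and 5 did not pass, with a median of -0.10 that turned to 0.26 under library totals. ARRDC4, another known target of the Mondo factors, had a log2 fold change of -0.35 between the extracts and was not called. It stood above vehicle with both, by 1.31 for Guibi-tang and 1.67 for Saengmaek-san (adjusted p = 7.8e-07 and 2e-07). The promoter of TXNIP is shown because it holds the paired E-box letters known as a carbohydrate response element, searched as a pair of CACGNG words with 5 bases between them, on both strands, and found once, from 88 to 72 bases before the start. It covers 250 bases before to 50 after 1 of the 2 RefSeq starts of this gene (GRCh38.p14, chr1:145996530-145996829, minus strand), with the match in capitals:
TXNIP: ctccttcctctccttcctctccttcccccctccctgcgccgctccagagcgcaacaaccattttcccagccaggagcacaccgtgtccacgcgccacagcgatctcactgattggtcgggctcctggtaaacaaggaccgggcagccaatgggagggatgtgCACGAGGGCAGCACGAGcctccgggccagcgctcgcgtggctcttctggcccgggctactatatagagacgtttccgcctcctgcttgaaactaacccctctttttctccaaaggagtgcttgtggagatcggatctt
Of 35116 RefSeq promoter windows of this length, 20 (0.057%) held these letters, and of 7 list genes with a window TXNIP alone did. The share counts windows and the list counts genes, which can have more than 1 window, so they are not directly comparable. The match describes the sequence and says nothing of a factor's binding in these cells.

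Matrix genes were among the largest falls. COL1A2, a chain of type I collagen, had 175.7, 188.7 and 183.4 CPM in Guibi-tang against 1548, 1685 and 1642 CPM in Saengmaek-san (log2 fold change -3.15, SE 0.13, adjusted p = 1.2e-22). TNC, the matrix glycoprotein tenascin C, had 53.04, 49.5 and 54.6 CPM in Guibi-tang against 436.7, 674.2 and 455.6 CPM in Saengmaek-san (log2 fold change -3.32, SE 0.32), and Saengmaek-san replicate 2 was the high one of its group. Of 26 genes for collagen chains and their processing, 25 fell and 1 rose (P4HA3, a prolyl hydroxylase subunit at under 1 CPM), with a median log2 fold change of -1.67 against 0.01 over all genes. Among 28 matrix glycoproteins and proteoglycans, 26 fell, 0 rose and 2 did not pass, with a median of -1.76, and LTBP1 (-2.57), FBN2 (-2.34) and fibronectin FN1 (-2.21) followed TNC. Against vehicle the medians were -1.80 for Guibi-tang and -0.23 for Saengmaek-san over the collagen list, and -2.07 and -0.35 over the glycoprotein list. Under library totals 23 and 25 members of these lists fell. The other falls among the 12 largest included COL11A1 (-2.78), COL1A1 (-2.68) and the matrix protein MATN2 (-2.90), the MAGE family genes MAGED1 (-3.18) and MAGED2 (-2.98), and ATP6V1G2-DDX39B (-3.29), a readthrough gene that shares reads with its neighbours and is therefore uncertain. MAGED1 had 75.97, 71.1 and 76.3 CPM in Guibi-tang against 636.5, 703.7 and 679.2 CPM in Saengmaek-san.

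Adhesion and contractile genes fell with them. VIM, the intermediate filament vimentin, had 775.2, 731.4 and 835.4 CPM in Guibi-tang against 5409, 5037 and 5277 CPM in Saengmaek-san (log2 fold change -2.75, SE 0.10), and Saengmaek-san lay close to the vehicle mean of 5214 CPM (log2 fold change against vehicle 0.01, adjusted p = 0.97). Of 15 integrin subunits 11 fell, led by ITGB4 (-2.69), ITGA7 (-1.98) and ITGA3 (-1.59), and only ITGB3, a vitronectin receptor chain, rose (49.0, 49.9 and 48.2 CPM in Guibi-tang against 11.1, 17.3 and 12.4 CPM in Saengmaek-san, log2 fold change 1.85), although library totals raised that count to 3. Of 19 YAP and SRF contractile targets 15 fell, with FLNA (-2.42), TAGLN (-2.24), ACTA2 (-1.98) and TPM2 (-1.86) lowest, and 3 rose, LATS2 (1.17), a kinase that inhibits YAP, most of them. All 11 tubulin isotypes tested fell, with a median of -1.63 and TUBA1A lowest (53.7, 53.1 and 53.3 CPM in Guibi-tang against 273.9, 236.6 and 265.2 CPM in Saengmaek-san), though reads of such close paralogs may be split uncertainly. Of 21 axon guidance genes 10 fell and 3 rose, EFNB2 (1.11) most, with a median of -0.24 (61.9% called, against 51.6% of all genes). Library totals gave 5 lower and 4 higher with a median of 0.12, and the length slope gave 17 lower and 3 higher with a median of -0.92.

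**Figure D3:**
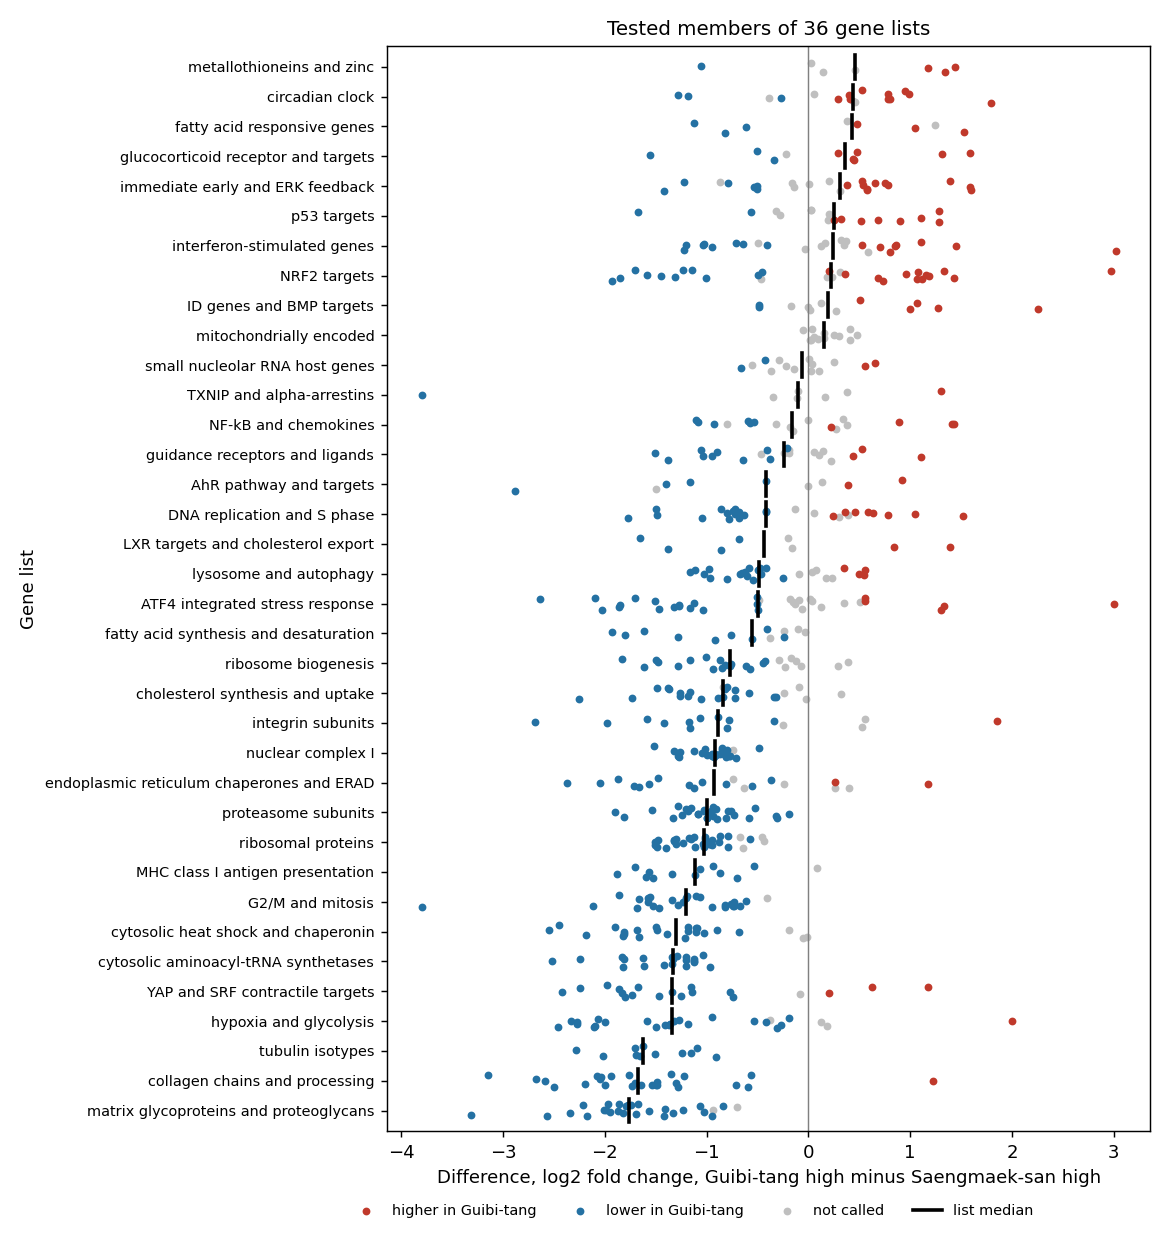
Log2 fold change of Guibi-tang high minus Saengmaek-san high for every tested member of 36 gene lists, ordered by the list median (black bar). Red members were called higher in Guibi-tang, blue members lower, and grey members were not called. The matrix, collagen and tubulin lists lie lowest, with medians of -1.76, -1.67 and -1.63, and the metallothionein, clock and fatty acid responsive lists highest.

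Genes of cell division were lower with Guibi-tang. KIF20A (ENSG00000112984, chr5:138178719-138187715, plus strand), a kinesin of the central spindle in cytokinesis, had 9.77, 9.76 and 10.9 CPM in Guibi-tang against 130, 156 and 138 CPM in Saengmaek-san (log2 fold change -3.80, SE 0.15, adjusted p = 5.5e-23), and a vehicle mean of 143 CPM. Of 27 G2/M and mitosis genes 26 fell and none rose, with a median of -1.20, and CDC20 (-2.12), an activator of the anaphase-promoting complex, and TOP2A (-1.86), the mitotic topoisomerase, followed. The replication genes split, with 15 of 27 lower and 8 higher. RRM1 (-1.77) and MCM7 (-1.50), a subunit of ribonucleotide reductase and of the replicative helicase, fell, while the cyclins of entry into S phase, CCNE2 (50.2, 45.5 and 48.4 CPM in Guibi-tang against 14.8, 17.3 and 18.1 CPM in Saengmaek-san, log2 fold change 1.52) and CCNE1 (1.05), rose. Library totals gave 12 lower and 11 higher. Of 17 p53 targets 8 rose and 2 fell (58.8% called, against 51.6% of all genes), or 12 and 1 under library totals. CDKN1A, the p21 inhibitor of cyclin-dependent kinases, had 45.9, 47.6 and 47.0 CPM in Guibi-tang against 19.5, 19.5 and 18.7 CPM in Saengmaek-san (log2 fold change 1.28), TP53INP1 had a log2 fold change of 1.28, MDM2 of 1.11, and FDXR, a mitochondrial reductase, of -1.67.

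Most protein folding genes tested were lower with Guibi-tang. HSPA5 (ENSG00000044574, chr9:125234853-125241330, GRCh38, minus strand), the main chaperone of the endoplasmic reticulum, had 750.7, 756.1 and 736.5 CPM in Guibi-tang against 3749, 3750 and 4073 CPM in Saengmaek-san (log2 fold change -2.37, SE 0.10, adjusted p = 1.3e-21). Of 20 endoplasmic reticulum chaperone and degradation genes 13 fell, HSP90B1 (-2.05), HYOU1 (-1.87) and CALR (-1.71) next, and 2 rose. The risers were DNAJB9, a cochaperone of HSPA5, with 69.9, 67.1 and 63.5 CPM in Guibi-tang against 29.1, 29.4 and 30.7 CPM in Saengmaek-san (log2 fold change 1.17), and XBP1, a transcription factor of the unfolded protein response, with 0.26 (adjusted p = 0.022), whose adjusted p was 0.16 without Saengmaek-san high replicate 2. Of 24 cytosolic heat shock and chaperonin genes 21 fell and none rose, with HSP90AA1 (-2.55), HSP90AB1 (-2.45) and CCT7 (-2.19) lowest. All 31 proteasome subunits tested fell, with a median of -1. The proteasome median came to -0.41 with the length slope as a covariate, with 27 subunits lower, and under library totals 25 were lower and 1 higher.

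The promoter of HSPA5 is shown for the letters of the endoplasmic reticulum stress element, searched as CCAAT and CCACG with 9 bases between them, on both strands, which stand once, in capitals, from 66 to 48 bases before the RefSeq start (GRCh38.p14, chr9:125241294-125241593, minus strand):
HSPA5: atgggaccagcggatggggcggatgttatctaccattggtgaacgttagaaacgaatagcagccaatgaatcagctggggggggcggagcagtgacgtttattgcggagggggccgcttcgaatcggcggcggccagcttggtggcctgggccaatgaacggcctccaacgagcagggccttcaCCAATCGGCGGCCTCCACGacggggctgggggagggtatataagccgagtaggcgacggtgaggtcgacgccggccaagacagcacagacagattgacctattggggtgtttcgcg
These letters stood in 27 of 35116 windows (0.0769%), and in windows of 7 of the 19 list genes that had one. Here too windows and genes are unlike units. The 7 were HSPA5, HSP90B1, CALR, PDIA6 (-1.17), CANX (-1.12) and CRELD2 (-1.05), which were lower in Guibi-tang, and XBP1, which was higher.

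The aminoacyl-tRNA synthetases tested were lower with Guibi-tang, while genes of the ATF4 response went both ways. All 20 cytosolic aminoacyl-tRNA synthetases fell, from -0.97 to -2.52, with a median of -1.33, and VARS1 and EPRS1, which charge tRNAs for valine and for glutamate and proline, were lowest. AARS1, the alanyl-tRNA synthetase, averaged 68.4 ± 1.7 CPM in Guibi-tang and 242.5 ± 7.44 CPM in Saengmaek-san (SD, n = 3 each), without overlap (log2 fold change -1.83, SE 0.06, adjusted p = 5.8e-26). Of 33 genes of the ATF4 response 17 fell and 5 rose (66.7% called, against 51.6% of all genes). The serine, proline and asparagine enzymes PHGDH (-2.64), ALDH18A1 (-2.10) and ASNS (-2.03) fell. ASNS had 24.9, 22.6 and 23.9 CPM in Guibi-tang against 101.4, 92.9 and 97.8 CPM in Saengmaek-san, and against vehicle its log2 fold change was -1.22 for Guibi-tang and 0.81 for Saengmaek-san (adjusted p = 5e-11 and 6.1e-06). GDF15, described above, and SLC7A11, the cystine importer (439.2, 413.7 and 406.2 CPM in Guibi-tang against 135.9, 205.6 and 159.5 CPM in Saengmaek-san, log2 fold change 1.33), were the largest rises of that list. Under library totals 14 of the 33 fell and 9 rose.

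The promoter of AARS1 is shown because its window holds the short CEBP-ATF response letters, searched as TGATGNAA on both strands and found once, on the opposite strand, from 187 to 180 bases before the RefSeq start (GRCh38.p14, chr16:70289457-70289756, minus strand), in capitals:
AARS1: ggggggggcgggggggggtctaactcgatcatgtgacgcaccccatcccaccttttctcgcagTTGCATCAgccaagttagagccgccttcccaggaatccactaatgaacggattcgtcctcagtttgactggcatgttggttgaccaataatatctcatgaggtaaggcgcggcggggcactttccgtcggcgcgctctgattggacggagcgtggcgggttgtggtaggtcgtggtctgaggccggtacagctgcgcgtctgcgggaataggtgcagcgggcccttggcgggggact
Such letters stood in 1270 of 35116 windows (3.62%), in those of 7 of 16 synthetase genes and of 6 of 27 ATF4 list genes with a window. The share of windows and the counts of genes are unlike units and not directly comparable. The 7 synthetases were lower in Guibi-tang, while of the 6 ATF4 list genes ASNS and CHAC1 (-1.16) were lower, SLC3A2 (0.56, adjusted p = 0.017, and 0.073 without Saengmaek-san high replicate 2) was higher and ATF3, CEBPG and SLC7A1 were not called.

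Most glycolytic and lipid-synthesis enzymes were lower with Guibi-tang, and the lipid droplet protein PLIN2 was higher. ENO1, an enolase of glycolysis, had 525.8, 536.2 and 561.7 CPM in Guibi-tang against 3250, 2703 and 2979 CPM in Saengmaek-san (log2 fold change -2.46, SE 0.18). PGK1 (-2.33) and LDHA (-2.27), which make ATP and lactate in that pathway, followed. Of 26 hypoxia and glycolysis genes 22 fell, against 19 without Saengmaek-san replicate 1, and ADM, the vasodilator peptide adrenomedullin, rose (45.0, 40.1 and 39.0 CPM in Guibi-tang against 10.4, 9.36 and 11.3 CPM in Saengmaek-san, log2 fold change 2.00). Library totals gave 17 lower and 3 higher.

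Of 24 cholesterol synthesis and uptake genes 19 fell and none rose, with DHCR7 (-1.73) and FDFT1 (-1.38) among the lowest, while HMGCS1 (-0.02), an entry enzyme, was not called. Of 13 fatty acid synthesis and desaturation genes 9 fell, and FASN, the fatty acid synthase, had 61.0, 62.0 and 63.8 CPM in Guibi-tang against 211.2, 278.3 and 222.3 CPM in Saengmaek-san (log2 fold change -1.93). Library totals gave 6 lower. PLIN2, which coats lipid droplets, had 219.8, 214.4 and 196.7 CPM in Guibi-tang against 104, 95.0 and 106.6 CPM in Saengmaek-san (log2 fold change 1.05, SE 0.08). PLIN2 was above vehicle with both extracts (log2 fold changes 1.80 and 0.76 for Guibi-tang and Saengmaek-san, adjusted p = 4.4e-21 and 1.9e-08). PDK4, a brake on pyruvate oxidation, also rose (1.53), whereas ACADVL (-1.12), an enzyme of fatty acid oxidation, fell. Of the 8 tested fatty acid responsive genes 3 rose and 3 fell (75% called, against 51.6% of all genes). Among 8 LXR targets ABCA1, the cholesterol exporter, rose (107, 99.1 and 95.5 CPM in Guibi-tang against 28.3, 50.3 and 36.2 CPM in Saengmaek-san, log2 fold change 1.39), while APOE fell (-1.65). Without Saengmaek-san replicate 1, 2 of these 8 rose and 2 fell, against 2 and 4 with it (75% called, against 51.6% of all genes).

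NRF2 targets moved both ways. Of 28 targets 13 rose and 11 fell, or 11 and 10 without Saengmaek-san replicate 1, and the median was 0.22. HMOX1 and the glutathione and thioredoxin genes SLC7A11, GCLC (1.08, the rate-limiting step of glutathione synthesis), TXNRD1 (1.07) and SRXN1 (1.18) rose, as did the iron-storage ferritins FTH1 (1.43) and FTL (1.16), which have many processed copies. The pentose phosphate enzymes TKT (-1.93), TALDO1 (-1.45) and PGD (-1.01) fell, as did the reductases AKR1C3 (-1.70), AKR1B10 (-1.59) and NQO1 (-1.23). Of these HMOX1, SLC7A11, TKT and AKR1C3 were named by size and the others for their roles, after their values were seen. TKT, a transketolase, had 150.8, 146.9 and 159.6 CPM in Guibi-tang against 612.9, 564.9 and 565.2 CPM in Saengmaek-san.

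Of 9 tested AhR pathway genes 4 fell and 2 rose (66.7% called, against 51.6% of all genes). Only 1 of the 2 rose without Saengmaek-san replicate 1. ALDH3A1, an aldehyde dehydrogenase, had 0.438, 0.364 and 0.228 CPM in Guibi-tang against 2.48, 2.56 and 2.52 CPM in Saengmaek-san (log2 fold change -2.88), and CYP1A1, the classical AhR target, had 0.693, 1.21 and 0.968 CPM in Guibi-tang against 1.99, 2.41 and 2.07 CPM in Saengmaek-san (log2 fold change -1.16). Against vehicle CYP1A1 stood at -0.04 on the log2 scale for Guibi-tang (adjusted p = 0.93) and rose by 1.11 for Saengmaek-san (adjusted p = 0.0011), at low levels. AHR itself rose (0.92, adjusted p = 0.0031) but had a log2 fold change of -0.07 with the length slope as a covariate. Of 7 tested metallothionein and zinc genes 3 rose and 1 (SLC39A10, a zinc importer) fell (57.1% called, against 51.6% of all genes). SLC30A1, the zinc exporter, had 168.7, 167.1 and 145.8 CPM in Guibi-tang against 51.5, 65.0 and 60.3 CPM in Saengmaek-san (log2 fold change 1.44). MT1E (1.34), a metallothionein with close paralogs, and MTF1 (1.17), the zinc-sensing factor, also rose.

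Of 24 interferon-stimulated genes 8 rose and 8 fell (66.7% called, against 51.6% of all genes), and library totals gave 15 and 5. IFIT3, a partner of IFIT2, had 49.98, 51.9 and 53.9 CPM in Guibi-tang against 20.5, 15.9 and 20.6 CPM in Saengmaek-san (log2 fold change 1.45), while IRF7 (-1.22), a transcription factor of the pathway, fell. MHC class I presentation fell in 12 of 13 genes, among them HLA-B (-1.88) and the immunoproteasome subunits PSMB8 (-1.70) and PSMB9 (-1.57), with the caution that HLA genes are polymorphic and similar. PSMB8 had 13.9, 14.8 and 14.9 CPM in Guibi-tang against 50.8, 41.2 and 49.9 CPM in Saengmaek-san, without overlap. Of 18 NF-kB targets 4 rose and 6 fell, shares near those over all genes (24.7% higher and 26.9% lower), and library totals turned the split to 8 higher and 3 lower, with a median of 0.20 against -0.16. The cytokines LIF (99.7, 93.4 and 97.8 CPM in Guibi-tang against 36.1, 37.5 and 34.1 CPM in Saengmaek-san, log2 fold change 1.43) and IL6 (1.41) led the rises, and BIRC3 (-1.10), an inhibitor of apoptosis, and the adhesion molecule ICAM1 (-1.08) the falls.

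Of 23 immediate early and ERK feedback genes 11 rose and 6 fell, or 9 and 4 without Saengmaek-san replicate 1 and 13 and 2 under library totals. With the length slope as a covariate 8 rose and 7 fell, and the median was 0.01, against 0.31 without. The phosphatases DUSP5 (49.8, 47.0 and 45.1 CPM in Guibi-tang against 17.2, 14.6 and 15.0 CPM in Saengmaek-san, log2 fold change 1.60) and DUSP1 (1.59) and the ERK-induced PHLDA1 (1.39) rose, and the early factors EGR1 (-1.42) and FOS (-1.22) fell. EGR1 had 29.1, 24.4 and 26.5 CPM in Guibi-tang against 83.3, 68.0 and 63.1 CPM in Saengmaek-san. Both groups lay below the vehicle mean of 159.7 CPM, which comes from another library set. The low doses also lay below vehicle, at 59.4 CPM for Guibi-tang and 63.1 CPM for Saengmaek-san. From low to high dose EGR1 changed by -1.16 on the log2 scale with Guibi-tang (edgeR adjusted p = 0.0034). With Saengmaek-san it changed by 0.18 (edgeR adjusted p = 0.86). BMP2, a BMP ligand, had 3.79, 3.55 and 2.87 CPM in Guibi-tang against 0.771, 0.648 and 0.6995 CPM in Saengmaek-san (log2 fold change 2.26). The BMP pathway genes SMAD6 (1.27), ID3 (1.07) and SMAD9 (1.00) rose with it. Of the 12 genes tested in this list 5 rose and 2 fell (58.3% called, against 51.6% of all genes), or 9 and 0 under library totals. Of 10 glucocorticoid receptor genes and targets 6 rose, DUSP1 and the EGFR inhibitor ERRFI1 (1.31) most, and 3 fell, including FKBP5 (-0.51), and the median of 0.36 was 0.03 with the length slope as a covariate. Of 17 clock genes 10 rose and 3 fell, with RORA (1.79) and BMAL1 (0.99) up and HLF (-1.28) and DBP (-1.18) down, and the list median of 0.44 turned to -0.14 with the length slope as a covariate.

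The counts for lists of short transcripts differed with transcript length in the fit. Of 31 ribosomal protein genes 27 fell (23 without Saengmaek-san replicate 1), with a median of -1.03, and of 25 nuclear complex I genes 24 fell (21), with a median of -0.92. With the length slope as a covariate these medians were -0.16 and -0.04, with 13 ribosomal genes lower and 5 higher, and 8 complex I genes lower and 1 higher. RPL4, of the large ribosomal subunit, had 385.3, 385.2 and 380.7 CPM in Guibi-tang against 1118, 994.2 and 1159 CPM in Saengmaek-san (log2 fold change -1.51). Ribosome biogenesis genes fell in 17 of 24, with BOP1 (-1.83) and nucleolin NCL (-1.62) lowest, and kept a median of -0.64 with the covariate, against -0.77 without. None of 13 mitochondrially encoded genes was called, with log2 fold changes of -0.05 to 0.48, and 5 rose under library totals. Of 14 snoRNA host genes 2 rose, 2 fell and 10 did not pass, and the median of -0.06 turned to 0.30 under library totals and 0.63 with the covariate. Of 26 lysosome and autophagy genes 17 fell, among them the protease CTSB (-1.11), and 4 rose (2 without Saengmaek-san replicate 1), while library totals gave 9 each way.

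The same pair was compared at the lower matched doses. At 100 µg/mL, 191 genes (0.986%) passed, 60 higher (0.31%) and 131 lower (0.676%) in Guibi-tang, and 183 of them were also called at 500 µg/mL in the same direction, 2 in the opposite direction and 6 not. That count fell to 47 without Saengmaek-san medium replicate 1, to 74 without Guibi-tang medium replicate 3 and to 83 without Guibi-tang medium replicate 1. HMOX1 had the largest rise among genes with a mean of at least 2 log2 CPM and no overlap over the 6 medium-dose libraries (1.24, SE 0.10, adjusted p = 3.4e-11), at 163.6 ± 19.1 CPM in Guibi-tang and 69.0 ± 7.67 CPM in Saengmaek-san (SD, n = 3 each). IGFN1 (1.14), SLC7A11 (1.04) and the ubiquitin ligase FBXO32 (0.89) followed under these conditions. PPARGC1B (1.06) and TM4SF19 (0.97), below that level, also rose. PADI2, an arginine deiminase (-0.93), SELENBP1, a selenium-binding protein (-0.83), the intermediate filament nestin NES (-0.79) and pyruvate carboxylase PC (-0.76) had the largest falls under the same conditions. At 20 µg/mL 0 genes passed (0%) in edgeR's test, with 428 genes at an unadjusted p under 0.05, and DESeq2 called 1.

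The change from 20 to 500 µg/mL differed between the extracts for 6761 genes (34.9%) in a test of the difference itself (interaction), which uses no vehicle library. It was more positive with Guibi-tang for 2908 genes (15%) and more negative for 3853 (19.9%). HMOX1 stood at 67.6, 163.6 and 637.1 CPM with 20, 100 and 500 µg/mL of Guibi-tang, and at 64.3, 69.0 and 81.1 CPM with the same doses of Saengmaek-san. TXNIP ran the other way, at 10.2, 9.69 and 7.55 CPM over the Guibi-tang doses and 11.2, 13.2 and 105.1 CPM over those of Saengmaek-san. COL1A2 stood at 1530, 1069 and 182.6 CPM over the Guibi-tang doses and 1593, 1590 and 1625 CPM over those of Saengmaek-san. Over the collagen list the median log2 change from 20 to 500 µg/mL was -1.65 for Guibi-tang and -0.14 for Saengmaek-san, over the G2/M list -1.11 and 0, and over the synthetases -1.15 and 0.10. GBP2, an interferon-induced GTPase named for its interaction, had 0.656, 0.606 and 0.569 CPM in the high-dose Guibi-tang libraries against 6.62, 6.37 and 6.93 CPM in the Saengmaek-san libraries.

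**Figure D4:**
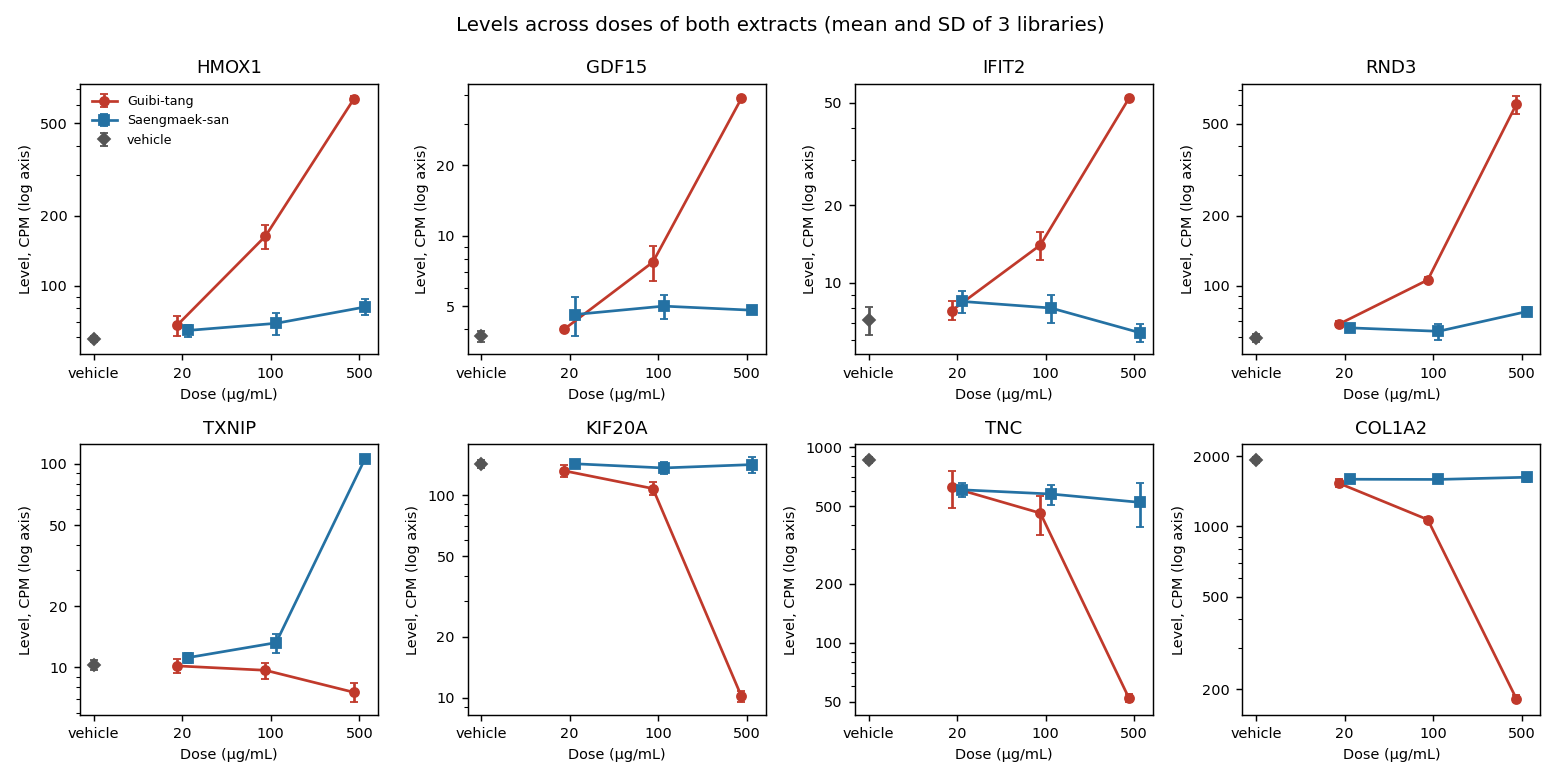
Mean level (TMM-scaled CPM, log axis, SD of 3 libraries as bars) of 8 genes in vehicle and at 20, 100 and 500 µg/mL of Guibi-tang (red circles) and Saengmaek-san (blue squares). HMOX1, GDF15, IFIT2 and RND3 climb with Guibi-tang, while TXNIP reaches 105.1 CPM at 500 µg/mL of Saengmaek-san, and KIF20A, TNC and COL1A2 are lowest at 500 µg/mL of Guibi-tang.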

How the data were processed

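The series holds RNA-seq of 60 libraries of SW1783 cells. The authors' deposited table gives expected counts per gene. Per the submitters' processing notes, FastQC 0.11.9, Trim Galore 0.6.5, STAR 2.7.3a and RSEM 1.3.3 were used with GRCh38, while the annotation release and strand setting are not given in the sources used here. RSEM divides reads shared by similar genes among them, and 9.62% of the deposited expected counts were not whole and were rounded to whole numbers here.

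Groups came from the labels. After edgeR's count filter (minimum 10, total 15) and TMM scaling, a single quasi-likelihood fit took in all 60 libraries as 25 groups and left 35 residual degrees of freedom (R 4.3.3, edgeR 4.0.16, limma 3.58.1, DESeq2 1.42.0). Two-sided p-values were adjusted by Benjamini-Hochberg over 19366 genes, at 0.05. Levels are TMM-scaled CPM, and fold changes are Guibi-tang over Saengmaek-san. The scripts were tested on simulated data. Symbols and coordinates came from GENCODE 29, and promoters from RefSeq.

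The members and lists were chosen with earlier results of these data known. Named genes were the 12 largest rises and falls among genes called with and without Saengmaek-san replicate 1, with a mean of at least 2 log2 CPM and no overlap; in each list up to 4 called members by size and 2 of the opposite direction; and the 4 largest differences each way at the medium dose and between dose responses. Other list members were named as not called, for their role or for a motif. Alternatives were RLE scaling, no count filter, library set 13 or the 6 libraries alone, a replicate block, a length slope, DESeq2, leaving out libraries and, added after seeing the data, library totals. Total counts of 21378428 to 32293706 limit genes of low count most.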

Additional observations from a re-analysis of the deposited data

Results flagged for a closer look

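The responses of the extracts differed by a test of the difference itself, high minus low dose of Guibi-tang against high minus low dose of Saengmaek-san, for 6761 genes in edgeR's quasi-likelihood test. The largest positive differences, on the log2 scale, were those of GDF15 (3.20, SE 0.25, adjusted p = 1.5e-13), IFIT2 (3.14, SE 0.29, adjusted p = 2.1e-11), RND3 (2.92, SE 0.20, adjusted p = 3.7e-15) and HMOX1 (2.90, SE 0.14, adjusted p = 1.2e-19). The largest negative differences were those of KIF20A (-3.68, SE 0.20, adjusted p = 3.2e-18), TXNIP (-3.66, SE 0.17, adjusted p = 7.2e-20), GBP2 (-3.40, SE 0.15, adjusted p = 1.6e-20) and TNC (-3.36, SE 0.42, adjusted p = 2.2e-08). This ranking covers only genes that met the conditions set for naming genes, among them a minimum mean level. Another condition was that the 3 high-dose libraries of Guibi-tang did not overlap those of Saengmaek-san. The separation of these 8 genes was therefore fixed by their choice and is no independent support.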

How the results depend on the processing

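The count of genes called at the high dose, 9997, ranged from 8768 without Saengmaek-san replicate 1 at every dose to 11732 with the replicate block and length slope, and from 8797 to 9546 with 1 of the 6 libraries left out. At the medium dose the count of 191 became 31 without the low-count filter, 1183 with the length slope, 1306 with the replicate block and length slope, 42 without Saengmaek-san replicate 1 at every dose and 384 in DESeq2, and 47 to 209 with 1 library left out. Library totals gave 71 higher and 57 lower there, against 60 and 131. At the low dose 0 genes became 1 with the replicate block and length slope and 1 in DESeq2. The interaction count of 6761 became 10286 with the replicate block and length slope, 5983 to 6577 with 1 library left out, and 5259 higher and 2309 lower under library totals, where the median of all genes was 0.33.

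With the length slope, and with the block and length slope, log2 fold changes reversed to -0.33 and -0.33 for AMOTL1, -0.07 and -0.07 for AHR, -0.17 and -0.15 for ARNT, -0.16 and -0.14 for NPC1, 0.01 and 0 for NDUFA13, 0.17 and 0.18 for SNHG32, and 0.14 and 0.13 for SNHG12. The cause was not tested. Over all alternatives, 2743 values of named genes kept direction and side of the threshold, 57 missed the threshold and 14 reversed. Named genes were chosen mostly by size, some also by the fit without Saengmaek-san replicate 1, so this tally does not cover genes in general. List medians depended more on the processing, with 115 values counted as moved and 281 as the same. Library totals moved the medians of 36 lists and the length slope those of 33. Replicate numbers did not pair the high-dose libraries (correlations of same-numbered deviations of -0.264, -0.268 and -0.071). Between the high and low doses these correlations were 0.336, 0.317 and 0.047 within Guibi-tang and 0.706, -0.252 and -0.078 within Saengmaek-san. The replicate block alone gave 9970, 193, 0 and 6821 genes for the high, medium and low doses and the interaction. All replicate pairs of the 6 libraries differed beyond sampling noise. Each group rests on 3 libraries.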
